A study of Rattus norvegicus with 24 samples.

Results

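Transcripts of 9 genes of the interferon response and of antigen presentation were measured in the rat brain stem after dietary exposure to rotenone, which blocks complex I, the entry point of electrons in mitochondrial respiration. The genes are Irf7, Ifit3, Isg15, Mx1, Mx2, Bst2, B2m, Psmb8 and Psmb9. They were found by their symbols in the annotation of the array, and all 9 were present among the 22093 genes that could be represented by 1 transcript cluster each. For a gene with several clusters the one with the highest mean was taken, which concerned only Psmb8 with 2 clusters. Levels are log2 intensities, and a difference of 1 on this scale is a doubling. Levels of different genes are not compared, since probes differ in brightness.

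The animals were male Wistar rats (RccHan:WIST), 7-8 weeks old at the start. Treated rats were fed rotenone at 400 ppm and were examined at day 1, day 3 or day 14, and control rats were given food without rotenone and examined on the same days. Each of the 6 groups comprised 4 rats with 1 array each, 24 arrays in all, and the labels call the arrays biological replicates. RNA came from a piece of brain stem, to which all its cell types contributed, and the piece can differ between rats. In such samples fewer cells of a type and less RNA per cell cannot be told apart. The question addressed here was whether these genes differed between rotenone and control on any of the days, and how much single rats differed.

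Interferons are secreted in response to viral nucleic acids and other danger signals. Type I interferons act through a receptor pair on the cell surface, and the signal ends at the interferon-stimulated response element (ISRE) in promoters. The induced proteins block viral replication and also raise the presentation of peptides on MHC class I. In the healthy brain many interferon-induced genes are kept at low levels, and microglia and endothelial cells are among the known responders to interferon. Within the panel, Irf7 encodes a transcription factor that amplifies interferon production. Ifit3, Isg15, Mx1, Mx2 and Bst2 encode antiviral effectors. B2m encodes the light chain of MHC class I, and Psmb8 and Psmb9 encode catalytic subunits of the immunoproteasome, which cuts proteins into peptides for presentation.

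Promoter sequences were available for 7 of the 9 genes in RefSeq (GRCr8), each from 250 bases before to 50 after the start of the gene. The ISRE core was searched as GAAA followed after any 2 bases by GAAA, or on the other strand as TTTC, any 2 bases and TTTC. It was found in 5 of the 7, against 1312 of 33469 promoters (3.92%) of the genome table, and in 42 of 117 (35.9%) promoters of the related genes described further down. The 5 promoters with a match are printed from 200 bases before to 20 after the start, with the match in capitals, since they carry the searched core. They lie at chr1:205800004-205800223 (- strand), chr1:241527126-241527345 (+ strand), chr16:18254948-18255167 (- strand), chr3:129549130-129549349 (+ strand) and chr20:4657012-4657231 (- strand).
Irf7: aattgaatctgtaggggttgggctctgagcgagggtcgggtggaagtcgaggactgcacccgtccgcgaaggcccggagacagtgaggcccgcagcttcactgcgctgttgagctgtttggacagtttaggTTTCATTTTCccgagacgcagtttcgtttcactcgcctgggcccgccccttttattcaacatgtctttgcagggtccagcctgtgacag
Ifit3: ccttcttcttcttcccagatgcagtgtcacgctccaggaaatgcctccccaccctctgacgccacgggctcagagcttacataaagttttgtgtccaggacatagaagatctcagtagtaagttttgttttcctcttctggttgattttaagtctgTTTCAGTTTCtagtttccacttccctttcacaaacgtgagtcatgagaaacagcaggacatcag
Bst2: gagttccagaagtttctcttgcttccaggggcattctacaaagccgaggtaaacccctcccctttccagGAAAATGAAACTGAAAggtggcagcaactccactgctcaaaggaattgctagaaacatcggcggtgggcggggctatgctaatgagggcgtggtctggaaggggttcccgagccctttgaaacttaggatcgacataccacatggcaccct
B2m: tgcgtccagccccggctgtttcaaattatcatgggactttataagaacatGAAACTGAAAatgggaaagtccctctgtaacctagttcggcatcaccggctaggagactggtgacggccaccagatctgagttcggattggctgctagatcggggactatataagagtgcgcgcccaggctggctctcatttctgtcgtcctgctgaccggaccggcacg
Psmb8: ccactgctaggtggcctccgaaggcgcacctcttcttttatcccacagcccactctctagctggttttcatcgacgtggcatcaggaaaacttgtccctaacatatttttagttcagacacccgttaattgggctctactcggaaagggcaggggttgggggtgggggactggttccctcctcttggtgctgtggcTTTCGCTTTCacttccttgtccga
The match began 69 bases before the start in Irf7 (-69), at -44 in Ifit3, at -150 in B2m and at -4 in Psmb8. Bst2 held 2 overlapping matches at -131 and -125. In Irf7, Ifit3 and Psmb8 the match was on the other strand. Mx1 and Psmb9 held no match in this window. An element for interferon gamma signalling, GAS, searched as TTC, any 3 bases and GAA, which reads the same on both strands, was found in 2 of the 7 (Bst2 and Psmb8), against 8.87% of all promoters. A match of letters is a description and does not show binding.

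Several properties of the arrays bear on the comparisons. Markers of the cerebellum, which adjoins the brain stem, had a mean log2 intensity of at most 9.03 in the rotenone groups and in the controls of days 3 and 14, against up to 11.93 in the controls of day 1. Control day 1 replicates 1 and 3 carried this signal. Brain stem markers were present, with 11 of 11 measured neuronal markers of this region above the median cluster on average. Markers of T and NK cells (4 of 13), B cells (1 of 5) and neutrophils (3 of 8) were mostly below that median. The mean log2 level of the brain stem markers fell to 7.85 in a control rat of day 1, against 8.16 or more in all rats of the other groups. At day 14 the median difference of rotenone minus control was -4.23 over 7 red cell genes, -0.31 over 9 endothelial genes and -0.12 over 15 genes of microglia and macrophages. It was 0.67 over 13 genes of choroid plexus and ependyma, all of them positive. Their mean log2 levels at day 14 ranged from 6.3 to 9.0 in single rotenone rats and from 6.1 to 6.9 in control rats. Single controls reached 8.0 at day 1 and 7.8 at day 3. The median difference at day 14 was -0.23 over 8 astrocyte genes, -0.23 over 9 meningeal genes and -0.18 over 7 oligodendrocyte genes. Mean log2 levels of the microglial genes at day 14 lay between 7.77 and 7.92 in rotenone rats and between 7.98 and 8.07 in control rats. This separation was not particular to microglia. Astrocyte genes lay between 11.745 and 11.869 in rotenone rats and between 11.892 and 12.255 in control rats. Red cell genes lay between 6.87 and 9.72 in rotenone rats and between 10.94 and 12.02 in control rats. The ranges of the other marker lists overlapped. The part of these shifts in the values of the interferon genes was not tested.

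None of the 9 genes passed the test for a difference between rotenone and control on any day. With limma fitted to all 24 arrays and Benjamini-Hochberg adjustment over 68842 clusters, 0 of 9 passed the threshold of 0.05 at day 1, at day 3, at day 14, for the average of the days and for the interaction of treatment and time. Among all clusters 0% passed at day 1, 0% at day 3, 0.0378% at day 14, 0.00291% for the average and 0% for the interaction. At an unadjusted limma p under 0.05, 0 members were found at days 1 and 3, 1 at day 14 (Irf7) and 1 for the average (Bst2). The shares among all clusters were 7.65%, 3.17%, 10.8% and 10.8%. On each day the 4 rotenone and 4 control rats overlapped for all 9 genes, whereas 3.63%, 2.40% and 5.34% of all clusters did not overlap at days 1, 3 and 14. No member met criteria built after those of the study, which combine tests of variance and rank with a fold change. The methods do not say how the fold was formed, and here it was the mean ratio of each rotenone rat to the median control. These criteria held for 0.00436% of the clusters at day 1, 0.00436% at day 3 and 0.0174% at day 14. For days 1, 3 and 14, the panel had median differences of 0.080, -0.0098 and -0.12. The corresponding medians over the 22093 genes were 0.034, 0.0053 and -0.0051.

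**Figure D1:**
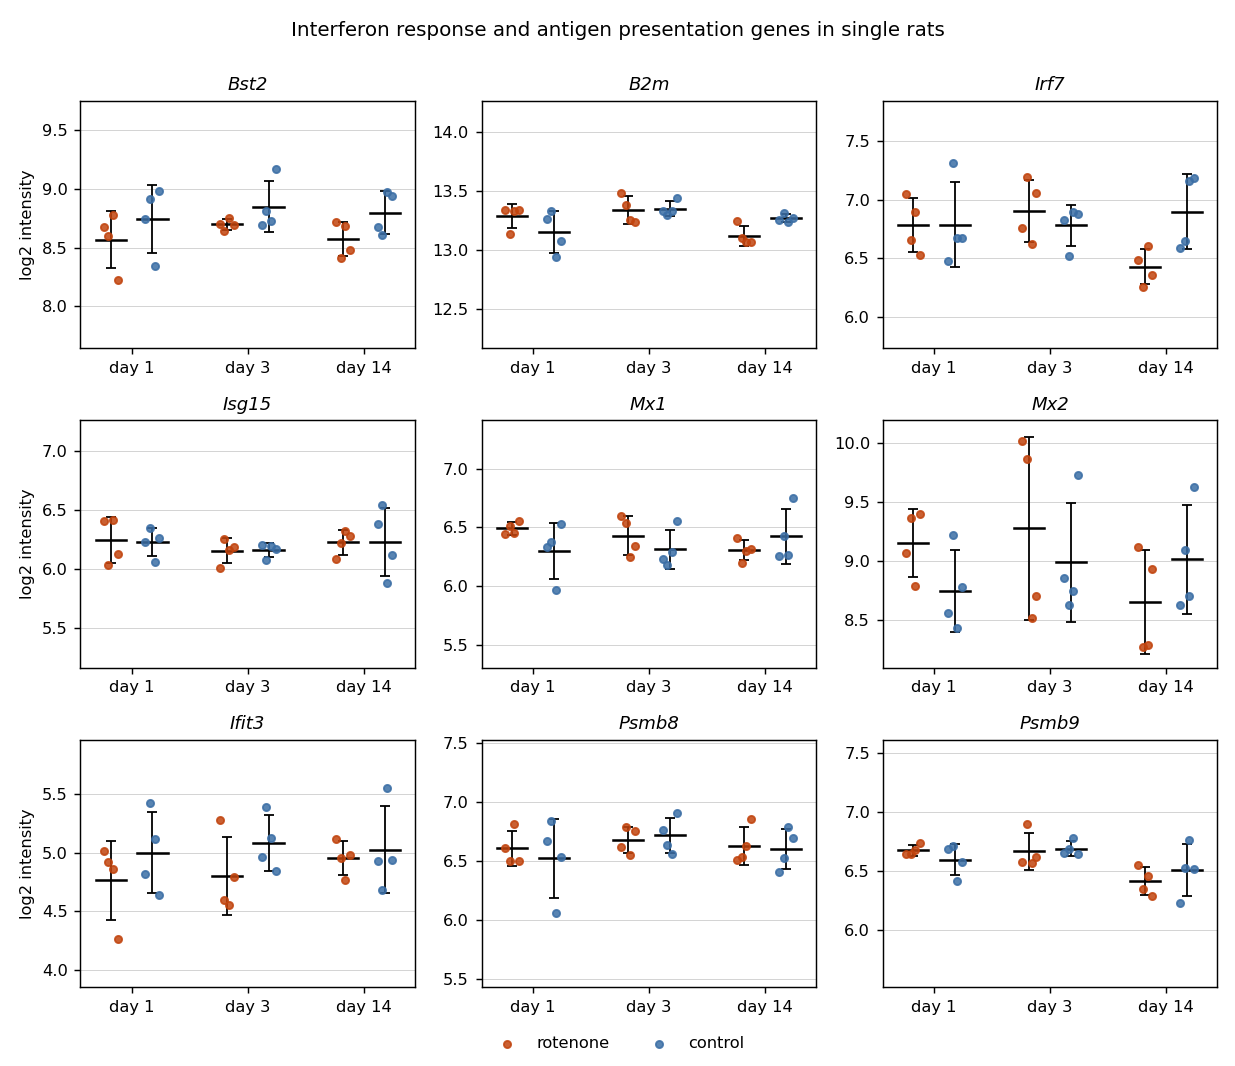
Levels of the 9 genes in single rats, as log2 intensity (vertical axis, the same height in log2 units in each panel) by day (horizontal axis), with rotenone rats in orange and control rats in blue. Points are single rats (n = 4 for each group), horizontal lines are means and bars are 1 SD. The groups overlap in every panel on every day, and Mx2 has the widest scatter.

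Irf7, the transcription factor of the panel, had the largest difference of the panel at day 14. Its levels at day 14 were 6.49, 6.26, 6.60 and 6.36 in the rotenone rats, against 6.59, 6.65, 7.16 and 7.19 in the control rats. The groups thus touched in 1 of 16 pairs of rats, with rotenone replicate 3 just above control replicate 1, and control replicates 3 and 4 stood above all other rats of that day. Of the negative control probe sets, 51.0% had a lower mean than its cluster. Group means were 6.43 ± 0.15 and 6.90 ± 0.32 (SD, n = 4 each). The difference was -0.47 (SE 0.18, 95% interval -0.84 to -0.10, limma adjusted p = 0.37). On the earlier days no such difference was seen. Levels at day 1 were 7.05, 6.66, 6.89 and 6.53 in rotenone rats and 6.48, 7.31, 6.68 and 6.68 in control rats, a difference of -0.0032. At day 3 they were 6.76, 7.20, 6.62 and 7.05 in rotenone rats and 6.83, 6.52, 6.89 and 6.88 in control rats, a difference of 0.13. The order of the 6 group means placed rotenone day 3 first (6.91), then control day 14 (6.90), control day 1 (6.79), rotenone day 1 (6.78) and control day 3 (6.78), with rotenone day 14 last (6.43). Neighbours in the first 5 places were within the spread of single rats (SD 0.26 within groups).

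Ifit3, whose protein binds IFIT1 in a complex that recognizes foreign RNA, lay in the range of the negative control probe sets, of which 16.2% had a lower mean than its cluster. Its levels at day 1 were 5.01, 4.92, 4.86 and 4.27 in rotenone rats, against 4.82, 5.42, 5.12 and 4.64 in control rats. The mean was lower by 0.24 on day 1 and by 0.28 on day 3. With single arrays left out, the day 1 difference ranged from -0.35 to -0.070 and was closest to 0 without rotenone day 1 replicate 4. Single rats ranged from 4.27 to 5.55 over all groups. At day 14 the means were 4.95 ± 0.14 in rotenone rats and 5.02 ± 0.37 in control rats (SD, n = 4 each). None of these differences exceeded the spread between rats.

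Isg15, a ubiquitin-like protein that is attached to other proteins, was flat. Its 6 group means lay between 6.16 and 6.25, a range of 0.092 that was smaller than the SD within groups of 0.16. At day 14 the 4 levels were 6.08, 6.22, 6.32 and 6.28 in rotenone rats and 6.38, 6.54, 5.88 and 6.12 in control rats. The differences were 0.019 at day 1, -0.0067 at day 3 and -0.0050 at day 14, with 95% intervals within 0.27 of 0 on each day. Of the negative control probe sets, 36.1% had a lower mean, which limits what the array could show for this transcript.

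Mx2, a dynamin-like GTPase with antiviral activity, varied most between rats. At day 1 its levels were 9.06, 9.36, 8.78 and 9.40 in rotenone rats and 8.56, 9.22, 8.43 and 8.77 in control rats, a difference of 0.41 (95% interval -0.27 to 1.08). At day 3 they were 10.02, 9.87, 8.51 and 8.70 in rotenone rats and 8.85, 8.62, 8.74 and 9.73 in control rats. Thus 2 rotenone rats and 1 control rat of that day stood about 1 unit above their group mates, and the difference ranged from 0.039 to 0.54 with single arrays left out. At day 14 levels were 9.12, 8.26, 8.28 and 8.93 in rotenone rats and 8.62, 9.09, 8.70 and 9.63 in control rats, a difference of -0.36 (95% interval -1.03 to 0.31). The SD within groups was 0.50, and 98.8% of the 22093 genes had a smaller one.

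Mx1, the paralog of Mx2, showed the same signs with smaller sizes. At day 1 the 4 levels were 6.44, 6.51, 6.45 and 6.56 in rotenone rats, against 6.33, 6.38, 5.97 and 6.53 in control rats, and the low control was replicate 3, one of the arrays with cerebellar transcripts. At day 14 they were 6.41, 6.19, 6.30 and 6.32 in rotenone rats and 6.25, 6.42, 6.27 and 6.75 in control rats. The differences were 0.19, 0.12 and -0.12 at days 1, 3 and 14, with 95% intervals that included 0 on each day. Of the negative control probe sets, 41.1% had a lower mean.

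Bst2, which tethers budding virus to the cell membrane and is also called tetherin, had, like Ifit3, a negative difference on all days, and it was the member with an unadjusted p under 0.05 for the average. At day 14 its levels were 8.71, 8.42, 8.68 and 8.48 in rotenone rats, against 8.67, 8.61, 8.97 and 8.94 in control rats. At day 3 they were 8.70, 8.64, 8.75 and 8.69 in rotenone rats and 8.69, 8.81, 8.73 and 9.17 in control rats. At day 1 they were 8.68, 8.60, 8.78 and 8.22 in rotenone rats and 8.74, 8.92, 8.34 and 8.98 in control rats. All 4 rotenone rats lay below the control mean at days 3 and 14, and 3 of 4 did so at day 1. The differences were -0.18, -0.15 and -0.23 at days 1, 3 and 14, and their average was -0.18 (95% interval -0.35 to -0.014, limma adjusted p = 0.43). Omitting rotenone replicate 4 brought the day 1 difference to -0.059, and omitting control replicate 3 of that day brought it to -0.31. The day 3 difference was -0.045 without control day 3 replicate 4.

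B2m, the light chain of MHC class I, was the least variable member, with an SD within groups of 0.11. At day 14 its levels were 13.25, 13.11, 13.07 and 13.07 in rotenone rats and 13.26, 13.31, 13.24 and 13.27 in control rats. All 4 rotenone rats lay below the control mean, and 1 of 16 pairs of rats crossed, but the difference was -0.15 (SE 0.087, 95% interval -0.33 to 0.032, adjusted p = 0.55). At day 1 the levels were 13.34, 13.13, 13.33 and 13.34 in rotenone rats and 13.27, 13.33, 12.95 and 13.07 in control rats, a difference of 0.13. The low control of day 1 was again replicate 3, which was the lowest of all 24 deviations from the group mean for Bst2, B2m, Mx1 and Psmb8. At day 3 the difference was -0.0098.

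Psmb8 and Psmb9 replace the constitutive catalytic subunits in the immunoproteasome. Psmb8 at day 14 was 6.51, 6.53, 6.63 and 6.86 in rotenone rats, against 6.41, 6.53, 6.79 and 6.70 in control rats. Its differences were 0.084, -0.039 and 0.027 at days 1, 3 and 14. The other cluster of Psmb8, with 5.68 ± 0.12 in rotenone and 5.80 ± 0.20 in control rats at day 14 (SD, n = 4 each), did not separate the groups either. Psmb9 at day 14 was 6.55, 6.35, 6.46 and 6.29 in rotenone rats and 6.23, 6.52, 6.77 and 6.52 in control rats. Its differences were 0.080, -0.023 and -0.096 at days 1, 3 and 14, and the groups overlapped on each day. Of the negative control probe sets, 47.6% had a lower mean than Psmb8 and 46.7% a lower mean than Psmb9.

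Without control day 1 replicates 1 and 3, the differences at day 1 were 0.15 for Mx2, 0.037 for Mx1, 0.086 for B2m and 0.037 for Psmb9, smaller than with all arrays. They were -0.38 for Bst2, -0.21 for Irf7 and -0.27 for Ifit3, larger in size, and -0.063 for Isg15 and -0.079 for Psmb8, with the sign turned. None passed the test there either (adjusted p of 1.0 after rounding for all 9).

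**Figure D2:**
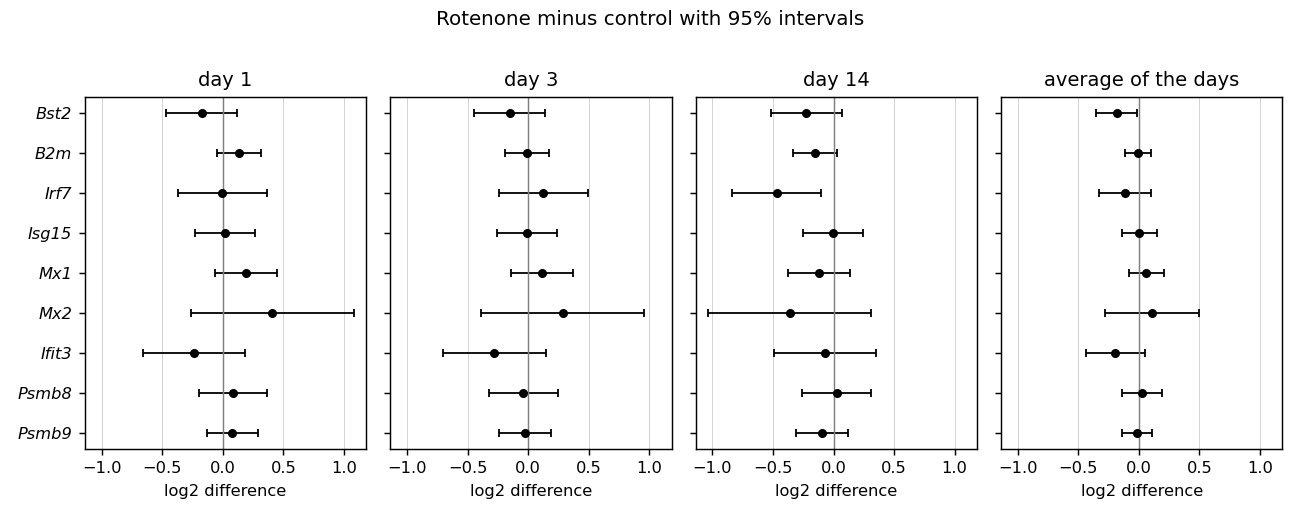
Differences of rotenone minus control for the 9 genes (horizontal axis, log2 units) at days 1, 3 and 14 and for the average of the days, with 95% intervals from limma. The interval lies below 0 only for Irf7 at day 14 (-0.84 to -0.10) and Bst2 in the average (-0.35 to -0.014), and neither passed the adjusted threshold.

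Across the days within a treatment, no member passed in the rotenone groups or in the control groups (0 of 9 in each, against 0.0407% and 0% of all clusters). At an unadjusted p under 0.05 for any difference between days, 2 members were found in the rotenone groups, Psmb9 and Irf7, against 5.76% of all clusters, and 0 in the control groups, against 9.08%. In rotenone rats Irf7 was lower at day 14 than at day 3 by 0.48 (limma adjusted p = 0.51), Psmb9 by 0.25 (adjusted p = 0.56) and B2m by 0.22 (adjusted p = 0.55). These 3 were the members with an unadjusted p under 0.05 between those days, against 7.62% of all clusters. Psmb9 was also lower at day 14 than at day 1 by 0.26 (adjusted p = 0.90), as the only such member, against 5.17% of all clusters. Between the control groups, B2m differed by 0.20 from day 1 to day 3 (adjusted p = 0.57), the only member with an unadjusted p under 0.05 there, against 8.15% of all clusters. Whether these time courses differ between treatments was tested by the interaction, which no member passed.

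The spread between single rats differed widely among the 9 genes. After Mx2 came Ifit3 with an SD within groups of 0.30, Irf7 with 0.26 and Bst2 with 0.20, followed by Psmb8 with 0.19, Mx1 with 0.17, Isg15 with 0.16, Psmb9 with 0.14 and B2m with 0.11. In Irf7, 83.4% of the 22093 genes had a smaller SD, and in B2m only 22.2%. For Isg15 the SD was larger than the range of the 6 group means, and for Psmb8 both were 0.19. Of the 9 genes, 8 had a smaller SD among rotenone than among control rats, with Mx1 at 0.11 in rotenone and 0.21 in control rats and Psmb8 at 0.14 in rotenone and 0.23 in control rats. Mx2 was the exception, with 0.54 in rotenone and 0.44 in control rats. The controls of day 1 include the arrays with cerebellar transcripts, and over days 3 and 14 alone, a setting added after the data were seen, 7 of 9 had the smaller SD among rotenone rats. The order of B2m turned there, with 0.10 in rotenone and 0.050 in control rats, and Psmb8 was at 0.14 in rotenone and 0.16 in control rats. The difference of these spreads was not tested, and the counts were not set against the share over all genes. They therefore do not show a trait particular to the panel.

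Rats that were high for Mx1 were also high for Mx2. Over the 24 deviations from the group means, Pearson's r was 0.80 (permutation p = 7e-05, adjusted over 36 pairs of members p = 0.0025) and Spearman's rho was 0.86 (permutation p = 1e-05, the smallest that 100000 permutations can give, adjusted p = 0.00036). Deviations were permuted within groups, two-sided. Without the 2 arrays farthest from the median r was 0.83, without control day 1 replicates 1 and 3 it was 0.84, and it was 0.94 among rotenone and 0.82 among control rats. Both genes lie on chromosome 11 in RefSeq and are similar in sequence, and whether probes read both was not tested. The rats concerned were those named above, rotenone day 3 replicates 1 and 2 and control day 3 replicate 4 being high for both and rotenone day 3 replicate 3 low for both.

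**Figure D3:**
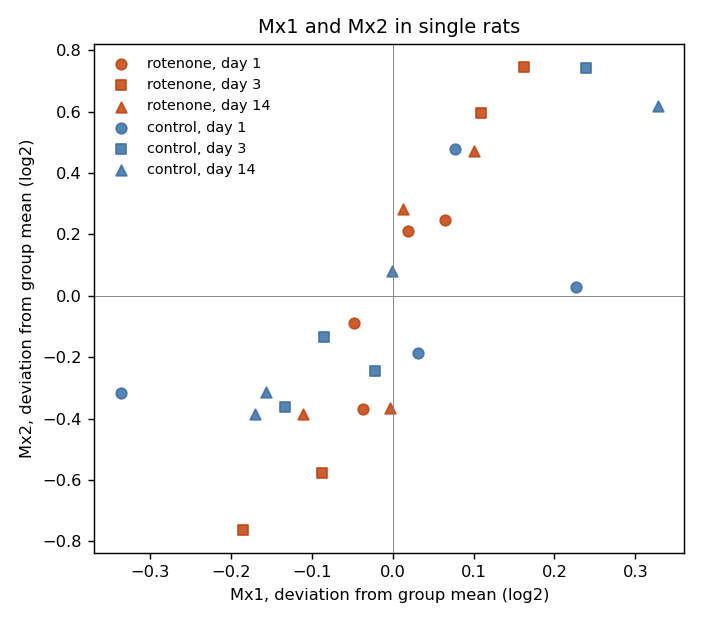
Deviation of Mx2 (vertical axis) against deviation of Mx1 (horizontal axis) from the mean of the own group, in log2 units, for 24 rats. Colours show rotenone and control, and shapes show the day. The points rise together (r = 0.80), with a wider range in Mx2.

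Among all 36 pairs of members 32 correlations were positive, with a median r of 0.29, but only that of Mx1 and Mx2 passed after adjustment. The next were Bst2 with Psmb8 (r = 0.63, permutation p = 0.014, adjusted p = 0.17), B2m with Mx2 (r = 0.56, permutation p = 0.010, adjusted p = 0.17) and Irf7 with Psmb8 (r = 0.54, permutation p = 0.041, adjusted p = 0.23). The correlation of Bst2 and Psmb8 was 0.19 among rotenone and 0.82 among control arrays. Control day 1 replicate 3, an array with cerebellar transcripts, had the lowest deviation in both genes (-0.40 and -0.47). Without control day 1 replicates 1 and 3 the r of this pair over the remaining arrays was 0.50. The difference between rotenone and control arrays was not tested. Isg15 and Ifit3 went along least with the others, with r of 0.16 and 0.26 to the mean of the 9 standardized deviations, against 0.59 to 0.79 for the other 7. Isg15 and Ifit3 had r = -0.40 with each other (permutation p = 0.15, adjusted p = 0.38). The median r was 0.34 with quantile normalization and 0.39 with centred arrays. Tissue composition of an array is shared by all its genes, and its part in these correlations was not tested. The count of positive pairs was not set against pairs of other genes.

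Of the other genes, those whose deviations over the 24 arrays were most like the mean of the panel were Eif2ak2 (r = 0.85), the interferon-induced kinase PKR that stops translation, and then Dpt, Vps26a, C4b, Ipo5, Dhrs4, Trim21, Pmp2, Tmco1 and Ctsl (r between 0.82 and 0.84). Trim21, like Eif2ak2, is an interferon-stimulated gene, and C4b encodes a complement component. For single members the closest were Trim27 (0.84) and Parp14 (0.80) for Irf7, Sbds (0.88) and C4b (0.86) for Psmb8, Parp3 (0.82) and Cidea (0.79) for Psmb9, Elovl6 (0.82) and Tbl2 (0.82) for Bst2, and Coa4 (0.84) and Bspry (0.83) for B2m. For Mx1 they were Bckdk (0.85) and Clic3 (0.79), for Mx2 Ldha-ps2 (0.78) and Ppia (0.78), for Ifit3 Lcorl (0.71) and Gpx7 (0.71), and for Isg15 Mir144 (0.85) and Or1e27 (0.84). These are descriptions, picked as the highest of 22093 genes.

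The wider pathway was described with 8 lists of related genes, of which 144 genes were measured, not counting the panel. None passed in either direction at any day or for the average. At an unadjusted limma p under 0.05, 6 of 144 were higher (4.17%, against 4.52% of the 22093 genes) and 1 lower (0.694%, against 3.67%) at day 1. At day 3, 5 were higher (3.47%, against 1.31%) and 0 lower (against 0.923%). At day 14, 24 of 144 were lower (16.7%, against 7.31% of the 22093 genes) and 4 higher (2.78%, against 5.22%). Without dim clusters 25 of 105 were lower at day 14, and the genes in all were also lower more often (1862 of 14463). At day 14 all 4 rotenone rats lay below all 4 control rats in 16 of the 144 (11.1%, against 6.16% of the genes), and above them in 0 (against 2.02%). The median difference of the 144 at day 14 was -0.070. The day 14 count was 12 without control day 14 replicate 3 (8.33%, against 4.81% of the genes), 12 without control day 14 replicate 4 (8.33%, against 5.75%) and 15 without rotenone day 14 replicate 2 (10.4%, against 5.44%). It was chosen for description after its value was seen.

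By role, the lower genes of day 14 were 6 of 19 receptor and signalling genes, 3 of 13 nucleic acid sensors, 8 of 43 interferon-stimulated genes, 3 of 20 genes of MHC class I and peptide loading, 3 of 14 of MHC class II and 1 of 14 of the GTPases and chemokines induced by interferon gamma. Of the 8 interferon genes themselves 0 were lower, 2 were higher (Ifnb1 and Ifne), and all 8 differences were positive, between 0.041 and 0.39. Of the 22093 genes 5.22% were higher and 10747 differences were positive, as were 42272 among all 68842 clusters (median 0.053). Ifne had a mean of 5.02 and Ifnb1 group means of 5.28 to 5.67, below the 6.24 of the median cluster. Without dim clusters 0 of 105 list genes were higher at day 14, against 303 of 14463 genes. With centred arrays it was 0 of 144, against 362 of 22093 genes. The main fit and the replicate block gave 4 of 144, trend and robust priors and array weights 3. Quantile normalization and the 8 arrays of the day alone gave 2, and omission of control day 1 replicates 1 and 3 gave 5. With single arrays left out the count of higher list genes ranged from 1 to 8. Of the 14 proteasome subunits and activators, 0 were found in either direction, with a median of -0.072. The other 2 higher genes were Ciita, the regulator of MHC class II transcription, and Rtp4.

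Ifit1, the partner of Ifit3 in RNA recognition, had the largest difference of these lists at day 14. Its levels were 5.80, 5.89, 5.08 and 5.96 in rotenone rats, against 6.25, 6.09, 6.72 and 7.78 in control rats, with no overlap and a difference of -1.03 (SE 0.38, adjusted p = 0.36). Without control day 14 replicate 4 the difference was -0.67. At days 1 and 3 its differences were -0.47 and 0.40. Herc6, the ligase that attaches ISG15 to proteins in rodents, was 8.62, 8.40, 8.33 and 8.32 in rotenone rats at day 14, against 8.75, 8.70, 9.07 and 8.76 in control rats (difference -0.40, adjusted p = 0.31). Both separated the groups, yet neither passed the test across all clusters.

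Of the genes of MHC class II, which present peptides to helper T cells and are carried by microglia and macrophages in the brain, Cd74, the invariant chain, had differences of opposite sign at the early days and day 14. Its differences were 0.77 at day 1, 0.76 at day 3 and -0.90 at day 14 (limma adjusted p = 0.38 at day 14, and 0.96 for the interaction). At day 14 its levels were 7.45, 7.36, 7.09 and 6.87 in rotenone rats, against 8.62, 7.21, 8.13 and 8.42 in control rats, of which replicate 2 lay within the rotenone range, and with single arrays left out the difference ranged from -1.20 to -0.73. Without control day 1 replicate 3 the day 1 difference was 0.43. RT1-DMa, a subunit of the peptide exchanger of class II, was 8.38, 8.58, 8.70 and 8.58 in rotenone rats and 9.43, 8.80, 9.02 and 8.72 in control rats at day 14 (difference -0.44, adjusted p = 0.40). The RT1 genes are a multigene family with similar sequences, so their values may be shared. Over the 14 class II genes the median difference was 0.13 at day 1 (13 positive) and 0.052 at day 3 (10 positive). At day 14 it was -0.049, with 6 positive and 8 negative, so the list as a whole was shifted less than these 2 genes. The microglial markers given above had a positive difference at day 1 in 14 of 15 cases (median 0.19) and a negative one at day 14 in 14 of 15 (median -0.12). Over the 22093 genes 13305 were positive at day 1 and 11346 negative at day 14. At day 1 all red cell, oligodendrocyte, T and NK cell and B cell markers were positive too, while most of cerebellum, choroid plexus and meninges were negative. Control day 1 replicates 1 and 3 carried cerebellar transcripts. The part of the microglial markers in these values was not tested.

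**Figure D4:**
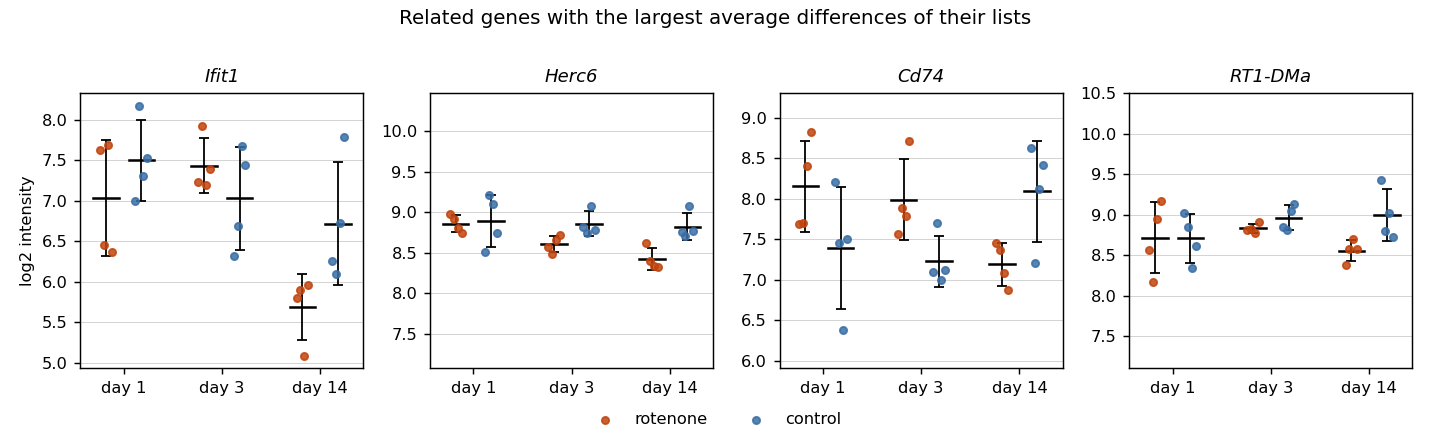
Levels of Ifit1, Herc6, Cd74 and RT1-DMa in single rats, as log2 intensity (vertical axis, the same height in log2 units in each panel) by day, with rotenone rats in orange and control rats in blue. Points are single rats (n = 4 for each group), lines are means and bars are 1 SD. At day 14 the rotenone rats lie below the control rats for Ifit1, Herc6 and RT1-DMa, and Cd74 overlaps.

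A few further genes of the lists that did not overlap at day 14 were named after their values were seen. Lgals9, encoding the interferon-induced lectin galectin-9, was 7.83, 7.72, 7.78 and 7.49 in rotenone rats at day 14, against 8.49, 7.98, 8.23 and 8.53 in control rats. Its difference was -0.60 (SE 0.13, limma adjusted p = 0.12), and with array weights it was -0.71 (adjusted p = 0.027), the only gene of the lists to pass there. It also passed without control day 14 replicate 2 (-0.71, adjusted p = 0.026). Its differences were 0.077 at day 1 and -0.041 at day 3. Stat2, the transcription factor of type I interferon signalling, was 8.77, 8.49, 8.62 and 8.67 in rotenone rats and 9.19, 8.91, 9.05 and 9.13 in control rats at day 14 (difference -0.43, adjusted p = 0.19), while its difference was -0.022 at day 1 and 0.26 at day 3. Rsad2, encoding viperin, was 6.05, 5.79, 6.02 and 5.63 in rotenone rats and 6.35, 6.35, 6.92 and 6.84 in control rats at day 14 (difference -0.74, adjusted p = 0.38). At day 1 its difference was 0.47 and at day 3 it was -0.35, and without rotenone day 1 replicate 3 that of day 1 was 0.077. In each of these 3 genes the rotenone rats of day 14 lay below the control rats without overlap.

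The other genes with the largest average differences of their lists did not pass either. These averages were 0.23 for Ifne and 0.17 for Ifnk among the ligands, 0.17 for Ifnlr1 and -0.16 for Irf3 in signalling, -0.17 for Tlr3 and -0.13 for Rig1 among the sensors, and 0.16 for Gbp1 and -0.15 for Socs1 among the genes of interferon gamma. In antigen presentation they were -0.36 for RT1-S3, of which -0.88 was seen at day 1, and -0.16 for Calr, the chaperone calreticulin, and in the proteasome list 0.074 for Psma1 and -0.072 for Psme1. Adjusted p-values of these 12 averages in limma were between 0.32 and 0.82.

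**Figure D5:**
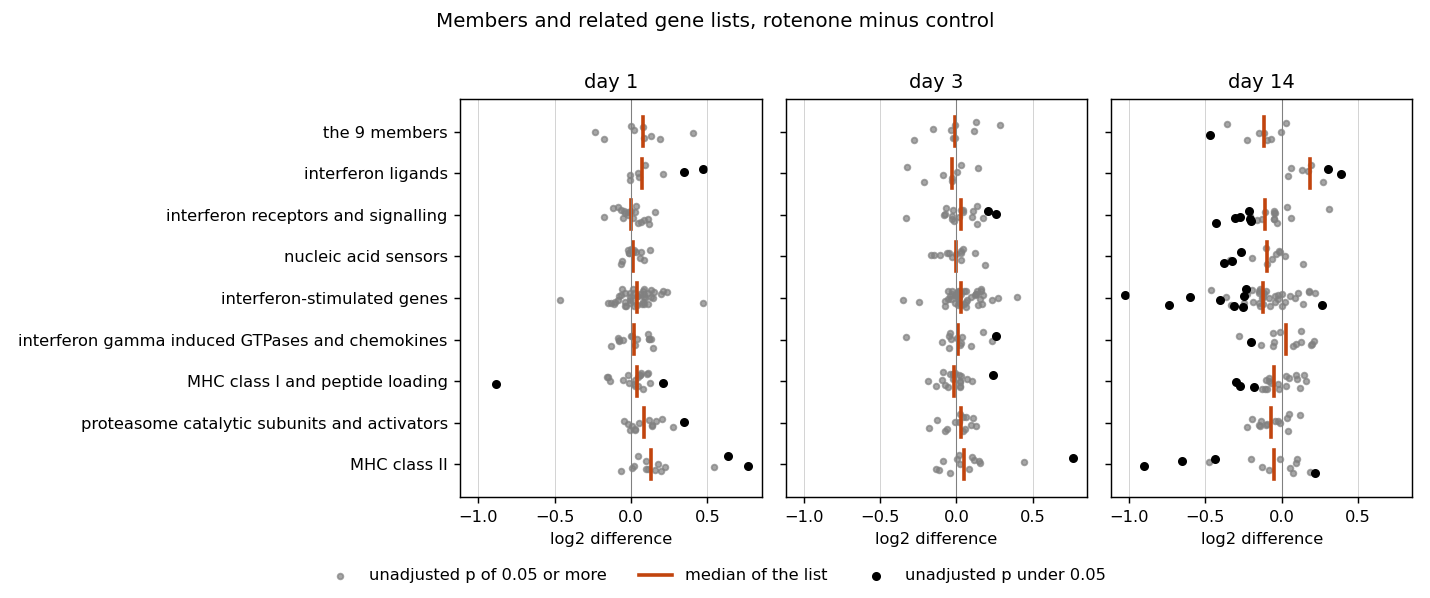
Differences of rotenone minus control (horizontal axis, log2 units) for the 9 members and the genes of 8 related lists at days 1, 3 and 14. Black points have an unadjusted p under 0.05, grey points do not, and the orange line is the median of the list. None passed the adjusted threshold, and most black points at day 14 lie below 0.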

How the data were processed

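RNA of brain stem tissue from 24 rats was hybridized to Affymetrix RTA 1.0 arrays, 1 per rat. The authors pre-processed the signals and condensed them with RMA, as the submitters' processing notes and the methods state, and the deposited values are intensities on a linear scale, 1 for each transcript cluster. The table holds 70580 entries. After 1738 control probe sets were left out, log2 was taken of the deposited intensities of 68842 clusters without further normalization. Median intensities per array were 70.7 to 82.6, and precision is limited by how many arrays there are. Symbols came from the platform annotation, which gave 1 symbol to 23446 clusters, several to 505 and none to 44891. Some symbols of the lists did not match and were not used.

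The 6 group means were estimated with limma 3.58.1 (R 4.3.3, 18 residual and 3.64 prior degrees of freedom), tested on simulated data first. Rotenone was set against control on every day, over the days on average and as an interaction with time, and days were compared within each treatment. P-values were adjusted over all clusters, and 0.05 was the threshold. Correlations used 100000 permutations within groups. Alternatives were quantile normalization, centring, trend and robust priors, omission of dim clusters, array weights, a replicate block, omission of control day 1 replicates 1 and 3, only the arrays of a day, the mean over clusters, criteria after those of the study, and each array left out.

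Named were all members, for each list the genes that passed and the pair with the largest average difference, and the genes most like the panel. The members, lists and rule were chosen with earlier results of these data known. Python 3.11.15, scipy 1.17.1 and matplotlib 3.10.9 were used.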

Additional observations from a re-analysis of the deposited data

Results flagged for a closer look

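In 54 sets of 4 rats (9 genes in 6 groups), 2 rats stood apart from their group by Dixon's criterion, and chance alone gives about 1 in 20 sets. For B2m in rotenone rats at day 1, replicate 2 had the lowest level, 13.13, and was 0.20 below the next rat, which was 0.957 of the range of the group. For Psmb9 in rotenone rats at day 3, replicate 2 had the highest level, 6.90, and was 0.28 above the next, 0.865 of the range.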

How the results depend on the processing

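No member passed in any of 1171 differences and 858 F tests under the alternatives, with a lowest adjusted p of 0.17 (Irf7 at day 14 without control day 14 replicate 2) and 0.37. The number of clusters called depended on the setting. It was 26 at day 14, but 45 with trend and robust priors, 84 without dim clusters, 98 with array weights, 14 with the replicate block, 71 without control day 1 replicates 1 and 3, 0 with only the 8 arrays of the day and 12 by criteria after those of the study. By these criteria it was 3 at day 1 and 3 at day 3, where limma gave 0. With the fold taken as the ratio of geometric group means instead, added after seeing the data, it was 3, 3 and 15 at days 1, 3 and 14. Array weights gave 1 at day 3. For the average it was 2, but 1 with centred arrays, 4 without dim clusters, 9 with array weights, 1 with the replicate block and 7 without the control replicates 1 and 3 of day 1. For the interaction it was 0, but 1 with trend, 1 without dim clusters and 3 with array weights. For time within rotenone it was 28, but 9 with quantile normalization, 18 with centred arrays, 64 with array weights, 15 with the replicate block and 75 without those 2 controls. With each array left out in turn the counts ranged from 0 to 71 at day 1, 0 to 154 at day 14, 1 to 9 for the average, 0 to 5 for the interaction, 0 to 302 for time within controls and 6 to 75 for time within rotenone. The cause was not tested. Replicate numbers did not pair the rats (correlations of same-numbered rats between -0.18 and 0.12).

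Signs turned only in differences of at most 0.084. Quantile normalization gave 0.0031 for Irf7 at day 1, -0.015 for Isg15 at day 1, 0.028 for B2m at day 3, -0.030 for Psmb8 at day 14, and 0.032 for B2m, -0.043 for Isg15 and -0.00084 for Psmb8 in the average. Centring gave -0.018 for Isg15 at day 1, -0.064 for Psmb8 at day 14, and -0.041 for Isg15 and -0.019 for Psmb8 in the average. Array weights gave 0.039 for Irf7 at day 1 and 0.038 for Isg15 at day 14. Without control day 1 replicates 1 and 3, day 1 gave -0.063 for Isg15 and -0.079 for Psmb8, and the average -0.025 and -0.030. The mean over both clusters of Psmb8 gave -0.048 at day 14 and -0.016 in the average. With single arrays left out the turned differences ranged, at day 1, from -0.11 to 0.17 for Irf7, -0.039 to 0.088 for Isg15 and -0.072 to 0.19 for Psmb8. At day 3 they ranged from -0.058 to 0.024 for B2m, -0.041 to 0.042 for Isg15, -0.090 to 0.024 for Psmb8 and -0.10 to 0.0081 for Psmb9. At day 14 they ranged from -0.12 to 0.099 for Isg15, -0.18 to 0.11 for Ifit3 and -0.049 to 0.088 for Psmb8. In the average they ranged from -0.032 to 0.011 for B2m, -0.036 to 0.037 for Isg15, -0.028 to 0.059 for Psmb8 and -0.044 to 0.015 for Psmb9. The correlation of Mx1 and Mx2 was 0.87 with quantile normalization and 0.85 with centred arrays. The day 14 count of 24 lower related genes was chosen after seeing the data. It was 37 with centred arrays, where the genes in all also shifted to lower (3297, against 1616). With only the 8 arrays of the day it was 14, against 1104 of the 22093 genes. It was between 12 and 31 with single arrays left out. The 31 came without control day 14 replicate 2 (21.5%, against 9.07% of the genes). Signals in the range of the negative controls, as in Ifit3, Isg15, Mx1, Psmb9, Psmb8 and Irf7, limit what the arrays could show.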
